A study of Homo sapiens with 13 samples.

Results

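The 9 genes NFIL3, PPP1R2, OLA1, SCMH1, MUTYH, FANCC, SIN3B, USF2 and LPAR2 were chosen from a two-colour array study of IRF4 knockdown in myeloma because their ratios on all 10 induced arrays lay on one side of those on all 3 uninduced arrays. They were found by gene symbol and were represented by 26 of the 15246 array features, of which 23 entered the tests. NFIL3, PPP1R2 and OLA1 were lower on every induced array, and SCMH1, MUTYH, FANCC, SIN3B, USF2 and LPAR2 were higher. The choice rests on measured ratios, so the induced and uninduced values of these genes are given as a description, with no test.

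Each of the 13 Lymphochip spotted cDNA arrays compared a culture carrying a doxycycline-inducible hairpin against IRF4, labelled with Cy5, with a culture of the same line carrying a hairpin against luciferase, labelled with Cy3. Induced arrays came from H929 at day 4 of doxycycline (2 arrays, named repeats of IRF4 hairpin series 2046), SKMM1 at day 4 (1 array, series 2046) and KMS12 (7 arrays). The KMS12 arrays came from hairpin series 1332 at days 3, 5 and 7, series 1332b at days 2 and 4, and series 2046 at days 2 and 4. Induced cultures received 20 ng/ml doxycycline, and the 3 uninduced arrays were the untreated KMS12 cultures of these series at day 0. H929 and SKMM1 had no uninduced array, so in these lines a change on induction and a standing difference between the 2 hairpin cultures cannot be told apart. All 3 lines are established myeloma lines, and both dyes of every array carried a hairpin. Nothing in the labels says that arrays of a group came from separate infections, so p-values measure the spread between these arrays only.

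IRF4 is a transcription factor of activated B cells and plasma cells on which myeloma cells depend. It binds DNA weakly alone and more strongly with partners, at paired GAAA elements or at composite sites that also carry the GGAA core of ETS proteins. The 9 genes belong to no common pathway. NFIL3 is a basic leucine zipper repressor, PPP1R2 is inhibitor-2 of protein phosphatase 1, and OLA1 is an ATPase of the Obg family. SCMH1 is a Polycomb protein related to the fly protein Scm, SIN3B is the scaffold of a histone deacetylase complex, and USF2 is a basic helix-loop-helix zipper factor that binds the E-box CACGTG. MUTYH is the DNA glycosylase that removes adenine mispaired with oxidised guanine, FANCC is a subunit of the Fanconi anaemia core complex, and LPAR2 is a G protein-coupled receptor for lysophosphatidic acid.

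RefSeq promoter windows on GRCh38.p14, running from 250 bases before to 50 bases after a transcript start, were found for all 9 genes, 13 windows in all. The motifs searched, on both strands, were an IRF pair (GAAA, any 2 bases, GAAA), an ETS-IRF composite (GGAA, any 2 bases, GAAA), the E-box CACGTG, and the NFIL3-type sites TTACGTAA and TTATGTAA. Among all 35116 windows, 3.57% held the IRF pair, 2.82% the composite, 7.26% the E-box, 0.125% the first and 0.886% the second NFIL3-type site. The first 2 differ at their second base, so a stretch read on 1 strand cannot match both, and the palindromic E-box and TTACGTAA read the same on both strands. SIN3B held 1 IRF pair, beginning 10 bases before the transcript start, and 1 FANCC window held an E-box, beginning 15 bases after it. No searched motif lay in the other 11 windows, so the windows of the lowered genes held none of these letters. The SIN3B window belongs to a transcript start inside the annotated gene. The windows with a match are shown with the matched bases in capitals, and those of PPP1R2 and OLA1 are shown, with no match, because these genes gave the highest correlation of any pair among the 9.
SIN3B (chr19:16863024-16863323, plus strand): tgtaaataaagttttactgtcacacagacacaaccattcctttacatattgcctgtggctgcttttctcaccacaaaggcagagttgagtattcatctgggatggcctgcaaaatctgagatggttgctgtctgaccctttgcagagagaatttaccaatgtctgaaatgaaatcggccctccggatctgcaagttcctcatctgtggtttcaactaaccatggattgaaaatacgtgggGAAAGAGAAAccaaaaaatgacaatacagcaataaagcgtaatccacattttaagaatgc
FANCC (chr9:95317660-95317959, minus strand): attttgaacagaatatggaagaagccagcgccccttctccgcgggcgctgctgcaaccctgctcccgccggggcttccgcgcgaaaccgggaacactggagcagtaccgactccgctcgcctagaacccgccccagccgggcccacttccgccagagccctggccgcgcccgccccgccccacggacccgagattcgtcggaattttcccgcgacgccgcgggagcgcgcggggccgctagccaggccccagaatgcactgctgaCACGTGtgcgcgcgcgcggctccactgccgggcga
PPP1R2 (chr3:195543276-195543575, minus strand): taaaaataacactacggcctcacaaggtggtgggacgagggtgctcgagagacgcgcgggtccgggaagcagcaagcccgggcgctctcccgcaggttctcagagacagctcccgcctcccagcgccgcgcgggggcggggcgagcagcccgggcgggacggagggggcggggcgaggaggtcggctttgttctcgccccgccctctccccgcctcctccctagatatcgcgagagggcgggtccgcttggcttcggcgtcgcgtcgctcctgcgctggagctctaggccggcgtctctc
OLA1 (chr2:174248483-174248782, minus strand): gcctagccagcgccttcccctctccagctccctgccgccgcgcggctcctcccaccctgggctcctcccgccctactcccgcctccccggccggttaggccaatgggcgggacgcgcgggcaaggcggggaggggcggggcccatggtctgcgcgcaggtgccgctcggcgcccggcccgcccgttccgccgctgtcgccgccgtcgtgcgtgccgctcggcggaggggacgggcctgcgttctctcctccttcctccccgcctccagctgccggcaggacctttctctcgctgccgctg
These matches are letters in a window and carry no binding measurement.

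Values below are deposited log ratios, taken as log2 of IRF4 hairpin over control hairpin, after each array was centred on its median and the tested features of a gene were averaged. The arrays held values for 7140 to 14228 features. Their median absolute deviation ranged between 0.227 on the series 1332b uninduced array and 0.660 on the series 1332b day 2 array. The lowest correlation between arrays was -0.33, between the SKMM1 array and the series 2046 uninduced array. The dyes are stated in the labels and the conditions differ, so the direction was kept.

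The targeted gene was checked first. IRF4 ratios on the induced arrays were -1.79 and -1.96 in H929, -2.02 in SKMM1 and between -1.78 and -0.59 in KMS12, against 0.24, 0.13 and 0.17 on the uninduced arrays. No induced array overlapped an uninduced one. Induced minus uninduced gave a log2 difference of -1.42 (SE 0.17, limma adjusted p = 0.00835), and IRF4 was 1 of 5 called of 3722 genes and features tested (0.134%). With the KMS12 series as a block, in a limma fit that replaced the group means by 1 induced term and tested 4728 genes and features, the count was 0, with 594 at an unadjusted p under 0.05 and an IRF4 adjusted p of 0.215. On the 3722 of the first test that fit called 1 gene with the block and 0 without it (532 at an unadjusted p under 0.05), so the lower count does not rest on the block alone. The 2 fits differ in their arrays as well. With the block, H929 and SKMM1 formed a level without uninduced arrays, so the induced term came from KMS12 arrays only. Without it, all 10 induced arrays entered that term. Leaving out single libraries moved the count of 5 to between 0 and 285, with 0 without any 1 of the 3 uninduced arrays and 285 without the KMS12 series 2046 day 2 array.

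NFIL3, the repressor of genes with D-box elements that is also needed for natural killer cell development, was the lowered gene with the widest gap. It averaged -0.85 ± 0.58 on induced arrays (SD, n = 10) and 0.24 ± 0.24 on uninduced arrays (SD, n = 3). The H929 arrays gave -1.15 and -1.13, and the SKMM1 array gave -2.02, the lowest NFIL3 value. In KMS12, series 1332 gave 0.10, -0.79, -0.40 and -0.22 at days 0, 3, 5 and 7. Series 1332b gave 0.11, -1.24 and -1.0, and series 2046 gave 0.52, -0.23 and -0.31, both at days 0, 2 and 4. Every KMS12 series was thus lower at each induced time than at its own day 0, and the nearest induced array, series 1332 at day 7, lay 0.32 below the nearest uninduced one.

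PPP1R2, an inhibitory subunit that also helps protein phosphatase 1 to fold, averaged -0.95 ± 0.67 on induced arrays (SD, n = 10) and 0.21 ± 0.38 on uninduced arrays (SD, n = 3). H929 gave -1.16 and -1.47, and SKMM1 gave -0.98. The series 1332 values were 0.31, -1.60, -0.56 and -0.25 at days 0, 3, 5 and 7. At days 0, 2 and 4 the gene stood at -0.20, -2.26 and -0.23 in series 1332b and at 0.53, -0.39 and -0.59 in series 2046. The series 1332b array at day 2 was the lowest of all, while the day 4 array of the same series lay only 0.028 below its uninduced array, the least margin among the 3 lowered genes.

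OLA1, which binds and hydrolyses ATP in place of the GTP used by its relatives, averaged -0.64 ± 0.71 on induced arrays (SD, n = 10) and 0.46 ± 0.33 on uninduced arrays (SD, n = 3). In H929 it was -0.79 and -1.72, and in SKMM1 -1.32. Series 1332 gave OLA1 ratios of 0.26, -0.78, 0.09 and -0.08 at days 0, 3, 5 and 7. The day 0, 2 and 4 arrays had 0.28, -1.59 and 0.17 in series 1332b and 0.83, -0.12 and -0.24 in series 2046. At days 4-5 of KMS12 the OLA1 mean was 0.00 ± 0.22 (SD, n = 3), close to the array median. The highest induced OLA1 ratio, 0.17, lay 0.092 below the lowest uninduced one, 0.26.

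**Figure D1:**
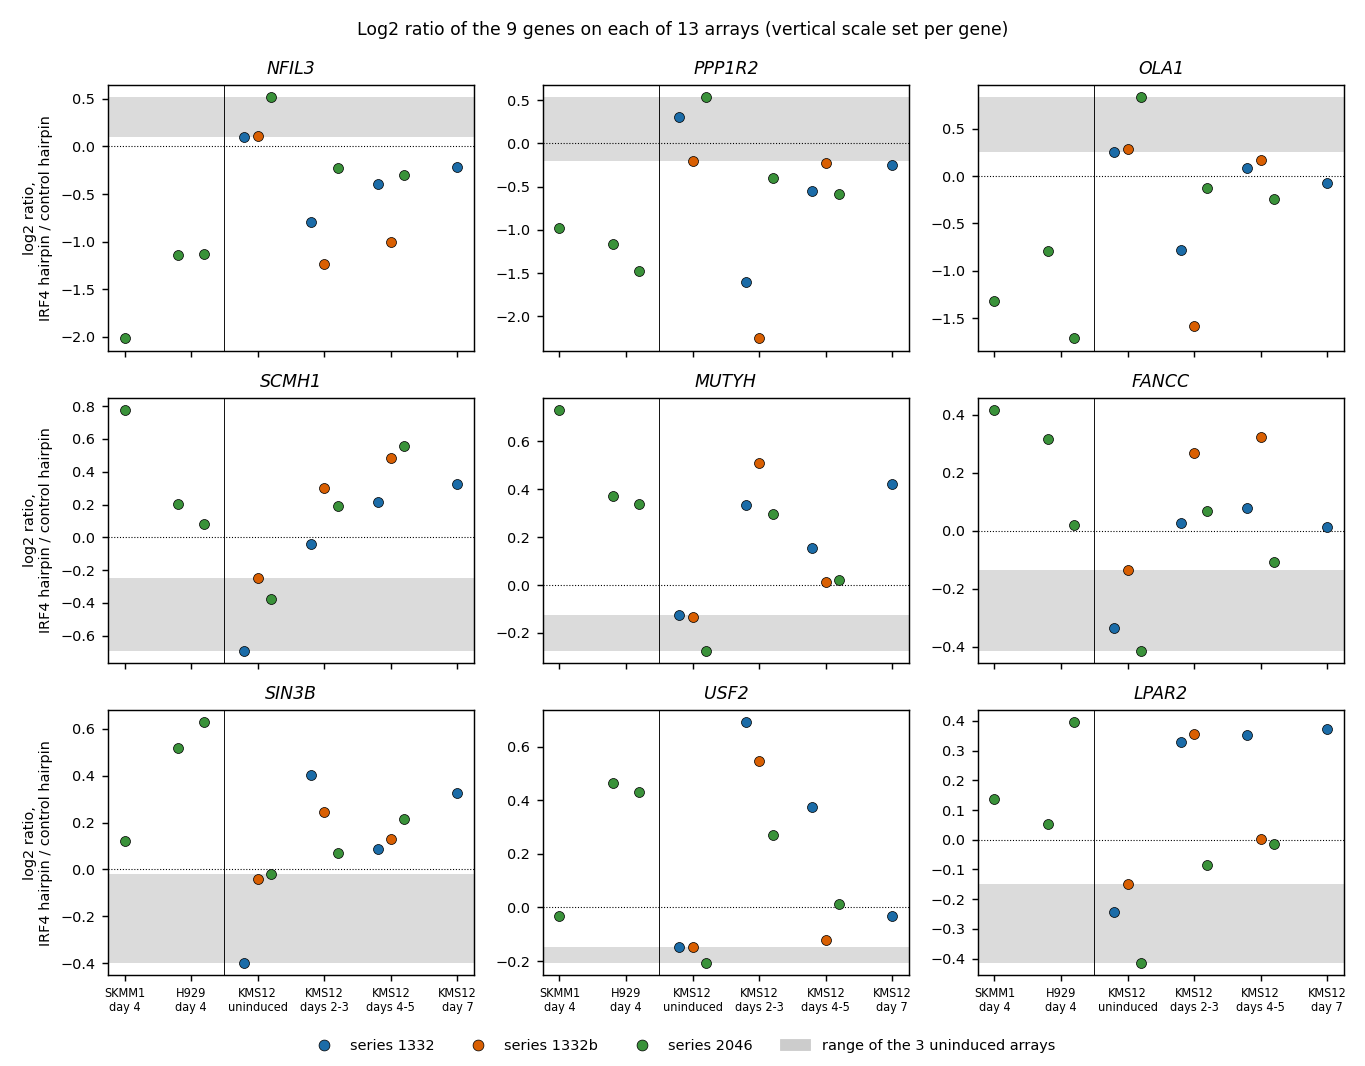
Each panel plots the centred log2 ratio of IRF4 hairpin over control hairpin (vertical axis, own scale per gene) of 1 gene on 13 arrays by line and time (horizontal axis). Points are arrays coloured by series and the grey band is the range of the 3 uninduced arrays, which no induced point of any panel enters.

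SCMH1 had the widest gap of the 6 raised genes. It averaged 0.31 ± 0.24 on induced arrays (SD, n = 10) and -0.44 ± 0.23 on uninduced arrays (SD, n = 3). H929 gave 0.20 and 0.08, and SKMM1 gave 0.78, the highest. Series 1332 gave -0.69, -0.04, 0.21 and 0.33 at days 0, 3, 5 and 7. At days 0, 2 and 4 SCMH1 was -0.25, 0.30 and 0.48 in series 1332b and -0.38, 0.19 and 0.56 in series 2046. In each KMS12 series the SCMH1 average was higher at every later time than at the one before, but single features did not all rise. In series 1332 the only feature with a day 3 value fell from -0.04 there to -0.31 at day 5. The other feature, with no value at day 3, entered the average at day 5. In series 1332b that other feature fell from 0.47 at day 2 to 0.20 at day 4.

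SIN3B, whose protein bridges DNA-bound repressors to histone deacetylases, averaged 0.27 ± 0.19 on induced arrays (SD, n = 10) and -0.15 ± 0.21 on uninduced arrays (SD, n = 3). Its ratios of 0.52 and 0.63 in H929 were the highest, and SKMM1 gave 0.12. KMS12 series 1332 had -0.40, 0.40, 0.09 and 0.32 at days 0, 3, 5 and 7. Series 1332b had -0.04, 0.24 and 0.13 and series 2046 had -0.02, 0.07 and 0.22 at days 0, 2 and 4. The uninduced arrays were uneven for SIN3B, with series 1332 well below the other 2.

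USF2, a ubiquitous factor that pairs with USF1, averaged 0.26 ± 0.28 on induced arrays (SD, n = 10) and -0.17 ± 0.04 on uninduced arrays (SD, n = 3). The H929 values were 0.47 and 0.43, and the SKMM1 value was -0.03. In series 1332 USF2 stood at -0.15, 0.69, 0.37 and -0.03 at days 0, 3, 5 and 7. The other series gave -0.15, 0.55 and -0.12 (1332b) and -0.21, 0.27 and 0.01 (2046) at days 0, 2 and 4. In all 3 KMS12 series USF2 was highest at the first induced time, and the series 1332b array at day 4 cleared the highest uninduced array by 0.025, the least margin of the 9 genes.

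MUTYH averaged 0.32 ± 0.22 on induced arrays (SD, n = 10) and -0.18 ± 0.08 on uninduced arrays (SD, n = 3). H929 gave 0.37 and 0.34, and SKMM1 gave 0.73. For series 1332 the MUTYH ratio was -0.13, 0.33, 0.15 and 0.42 at days 0, 3, 5 and 7. It was -0.13, 0.51 and 0.01 in series 1332b and -0.27, 0.30 and 0.02 in series 2046 at days 0, 2 and 4. In both of these series the day 4 value was close to 0.

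FANCC, part of the complex that ubiquitinates FANCD2 and FANCI at DNA crosslinks, averaged 0.14 ± 0.17 on induced arrays (SD, n = 10) and -0.29 ± 0.14 on uninduced arrays (SD, n = 3). H929 gave 0.32 and 0.02, and SKMM1 gave 0.42. Days 0, 3, 5 and 7 of series 1332 gave FANCC ratios of -0.34, 0.03, 0.08 and 0.01. Days 0, 2 and 4 gave -0.14, 0.27 and 0.32 in series 1332b and -0.41, 0.07 and -0.11 in series 2046. The last of these was the only induced FANCC ratio below 0, and it cleared the highest uninduced array by 0.027.

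LPAR2, which couples to several classes of G protein, averaged 0.19 ± 0.19 on induced arrays (SD, n = 10) and -0.27 ± 0.13 on uninduced arrays (SD, n = 3). H929 gave 0.05 and 0.40, and SKMM1 gave 0.14. The series 1332 ratios of LPAR2 were -0.24, 0.33, 0.35 and 0.37 at days 0, 3, 5 and 7. At days 0, 2 and 4 they were -0.15, 0.36 and 0.00 in series 1332b and -0.42, -0.08 and -0.01 in series 2046. The series 1332 average held its level through day 7, and the induced KMS12 averages of series 2046 stayed just below 0. The 2 tested features moved apart in series 1332. Between days 3 and 7, 1 rose from 0.755 to 1.146 and the other fell from -0.097 to -0.4.

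The fitted differences of induced minus uninduced means were -1.09 (SE 0.22) for NFIL3, -1.16 (SE 0.31) for PPP1R2 and -1.10 (SE 0.28) for OLA1 on the log2 scale. For the raised genes they were 0.75 (SE 0.16) for SCMH1, 0.50 (SE 0.13) for MUTYH, 0.46 (SE 0.16) for LPAR2, 0.44 (SE 0.15) for FANCC, and 0.43 for both SIN3B (SE 0.15) and USF2 (SE 0.16). Set against all 3722 genes and features by size, 1.26% had a larger difference than PPP1R2, 1.93% than OLA1 and 2.02% than NFIL3. The raised genes were more ordinary in size, with 8.81% of genes larger than SCMH1 and between 21.9% and 28.6% larger than the other 5.

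The same rule was met by 74 of the 2496 genes and unnamed features with values on all 13 arrays (2.96%), 19 with higher (0.761%) and 55 with lower ratios (2.2%) on induced arrays. Among 1703 named genes it was met by 52, 13 higher and 39 lower, the 9 genes and IRF4 included. Leaving out single uninduced arrays moved the 74 to 113 without series 1332, 279 without series 1332b and 95 without series 2046, and leaving out the series 1332b day 4 array moved it to 145. Named genes just outside the rule were SLC25A5, a mitochondrial ADP/ATP carrier, with a gap of -0.0012 on the lower side, MYB, a transcription factor of immature blood cells, with -0.003 on the lower side, and IL27RA, a cytokine receptor subunit, with -0.013 on the higher side, where a gap below 0 is an overlap. When each array was set against its own series, 378 of 3159 genes and features (12%) had every induced KMS12 array on one side of its day 0 array, a set that holds the 9 genes by construction.

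The rule was met on centred ratios. Before centring, the median of the tested features was between -0.16 and -0.02 on the induced arrays, against 0.28 on the series 2046 uninduced array and 0.03 and 0.02 on the other uninduced arrays, so the median of all genes moved by -0.19 between induced and uninduced arrays. On the deposited values NFIL3, PPP1R2 and OLA1 still met the rule, with gaps of 0.42, 0.092 and 0.16, and all 6 raised genes overlapped. The number of induced arrays above all uninduced ones was then 9 for SCMH1 and LPAR2, 8 for MUTYH and FANCC, 6 for USF2 and 3 for SIN3B. SIN3B overlapped most, with an induced mean of 0.18 against 0.26 on the series 2046 uninduced array. All 6 kept a higher induced mean, by 0.22 for SIN3B to 0.55 for SCMH1. Over all genes, 121 of 2496 (4.85%) met the rule on the deposited values, 3 of them higher (0.12%) and 118 lower (4.73%), and limma called 263 genes, 12 higher and 251 lower, where centring gave 3 higher and 2 lower. The cause of the unequal array medians was not tested. With arrays scaled to one spread after centring, PPP1R2 overlapped (gap of -0.17) and the other 8 genes met the rule.

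**Figure D2:**
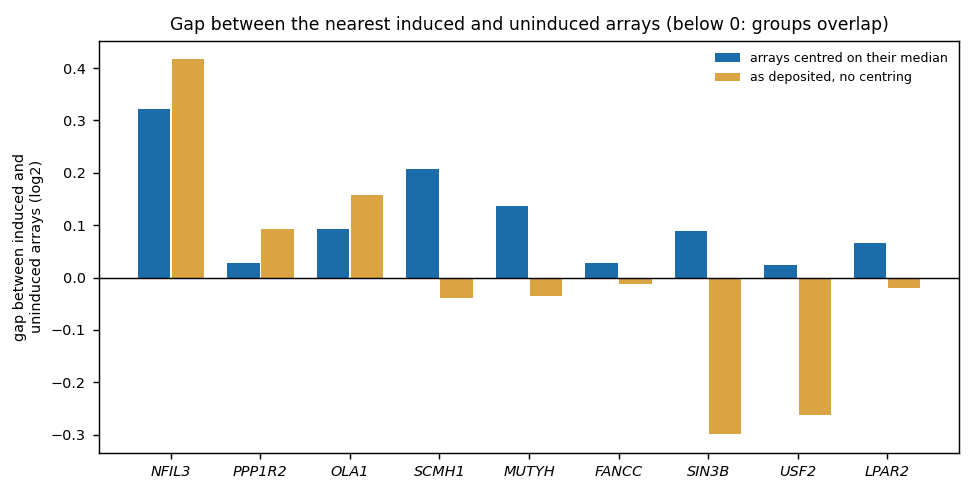
Bars show, for each gene on the horizontal axis, the log2 distance between the nearest induced and uninduced arrays (vertical axis), with centring (blue) and as deposited (yellow). A value below 0 means overlap, which only the 6 raised genes show, and only without centring.

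The clones that represent a gene were also viewed singly. All 23 tested features had the same sign of induced minus uninduced as their gene. The gene value is their average, and the genes were chosen on it, so this sign was largely set in advance. For OLA1, with 1 feature, it was wholly so. Only 9 of the 23 had a value on all 13 arrays, and 4 of these met the rule alone, 1 each for NFIL3, PPP1R2, OLA1 and SIN3B. Across single features with 13 values, 101 of 2959 (3.41%) met it. The other genes met the rule as averages over 2 to 4 features, whose missing values differed between arrays. Each array could therefore rest on a different set of clones, and on the series 1332 array at day 3 both SCMH1 and FANCC rested on 1 feature. Of 3 features below the filter, 1 of PPP1R2, with values on 6 arrays, had the opposite sign (0.66), 1 of SCMH1 had a difference of -0.0057 over 8 arrays, and 1 of LPAR2 had 0.89 over 9. When all features with at least 2 values in H929 and in each KMS12 group of 3 were averaged instead, FANCC, USF2 and LPAR2 overlapped and 6 genes met the rule.

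Agreement between features of a gene differed widely. The mean Pearson r between tested features over the arrays they shared was 0.93 for NFIL3 and 0.89 for PPP1R2. It was 0.58 for SIN3B, 0.52 for MUTYH, 0.48 for USF2, 0.37 for FANCC and 0.27 for SCMH1. For LPAR2 it was -0.33, and its feature with all 13 values placed only 1 of 10 induced arrays above the highest uninduced one. Over all 1245 genes with several features the median was 0.50, with quartiles of 0.21 and 0.73, so NFIL3 and PPP1R2 lay above the upper quartile and LPAR2 below the lower. OLA1 had 1 feature and no such check.

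**Figure D3:**
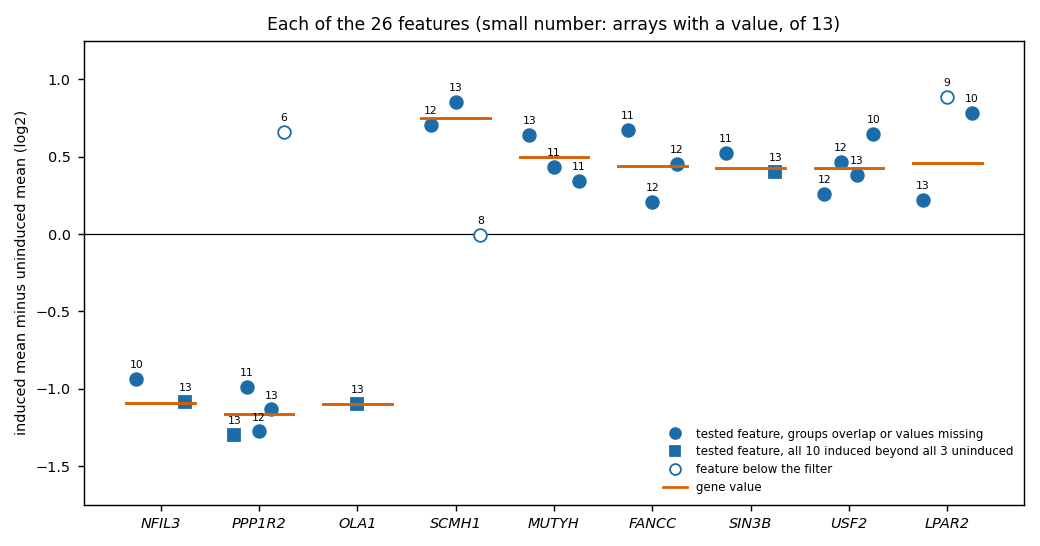
Points are the 26 features by gene (horizontal axis), placed by their induced mean minus uninduced mean on the log2 scale (vertical axis), with the number of arrays of 13 that gave a value. Squares met the rule alone, open points were below the filter, and orange lines are the gene values. These come from averages of the filled points, so the sign they share with every filled point is largely built in.

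Comparisons among induced arrays were not used to choose the genes, and 2 were tested. The first asked how the ratios at days 4-5 of KMS12 stood against those at days 2-3. OLA1 was higher at the later time by 0.83 (SE 0.36, limma unadjusted p = 0.040, adjusted p = 0.260) and PPP1R2 by 0.96 (SE 0.39, unadjusted p = 0.031, adjusted p = 0.236). These were the 2 of 9 genes (22.2%) with an unadjusted p under 0.05, against 857 of 4728 (18.1%) over all genes, or 11.9% counting higher values only, as both were, and no gene passed the adjusted threshold, among the 9 or overall (0 of 4728, 0%). For both, the later array was higher in series 1332 and 1332b and lower in series 2046.

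For MUTYH all 3 later arrays lay below all 3 earlier ones, with a difference of -0.32 (SE 0.17, limma adjusted p = 0.331). The share of all genes with such a separation was not counted. The USF2 difference was -0.41 (SE 0.20, limma adjusted p = 0.286), with the later array lower in each series. For SCMH1 it was 0.27 (SE 0.20, adjusted p = 0.477), and for NFIL3 0.18 (SE 0.28, adjusted p = 0.748). Differences of SIN3B, LPAR2 and FANCC were smaller than their SE, at -0.09, -0.09 and -0.02. IRF4 itself stood 0.66 higher at days 4-5 (SE 0.21, limma adjusted p = 0.197), with all 3 later arrays above the earlier ones. Without the series 2046 day 2 array the PPP1R2 difference was 1.47 with an adjusted p of 0.0143 (range 0.0143 to 0.611 over the 20 alternatives run), and 360 genes passed overall; without the series 1332b day 2 array 1 did.

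The second asked whether H929 differed from KMS12 at days 4-5. The 2 H929 arrays carried the series 2046 hairpin and the KMS12 arrays all 3 series, so line and hairpin were only partly crossed. None of the 9 passed the adjusted threshold, against 2 of 4607 genes overall (0.0434%). OLA1 gave the lowest p and was lower in H929 (log2 difference of -1.26, SE 0.40, limma unadjusted p = 0.00906, adjusted p = 0.173), with means of -1.25 ± 0.65 in H929 (SD, n = 2) and 0.00 ± 0.22 in KMS12 (SD, n = 3). It was the 1 of 9 (11.1%) under an unadjusted p of 0.05, against 781 of 4607 (17%) over all genes, or 10.3% counting lower values only.

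Both H929 arrays lay beyond all 3 KMS12 arrays for NFIL3 (-0.57, SE 0.31, limma adjusted p = 0.365), PPP1R2 (-0.86, SE 0.44, adjusted p = 0.336), OLA1 and SCMH1 (-0.28, SE 0.22, adjusted p = 0.539), which were lower in H929. They also did so for SIN3B (0.43, SE 0.21, limma adjusted p = 0.320), USF2 (0.36, SE 0.22, adjusted p = 0.412) and MUTYH (0.29, SE 0.19, adjusted p = 0.442), which were higher. FANCC and LPAR2 overlapped between the lines, with differences of 0.07 and 0.11. The share of all genes separated in this way was not counted, so these separations are a description only. The IRF4 ratio was also lower in H929 on both arrays (log2 difference of -1.22, SE 0.24, limma adjusted p = 0.0682). With the hairpin series as a block, H929 and SKMM1 counted in series 2046, none of the 9 passed. The log2 differences moved most for PPP1R2 (-1.26, limma adjusted p = 0.141), NFIL3 (-0.93, adjusted p = 0.0889) and OLA1 (-1.54, adjusted p = 0.104). Those of LPAR2 (0.30, adjusted p = 0.461) and FANCC (0.20, adjusted p = 0.604) moved less. Over all genes that limma fit called 0, with 1079 at an unadjusted p under 0.05. Over all genes, the count of 2 moved to between 0 and 31 when single arrays were left out, with 31 and 26 without the KMS12 day 2 arrays of series 1332b and 2046.

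**Figure D4:**
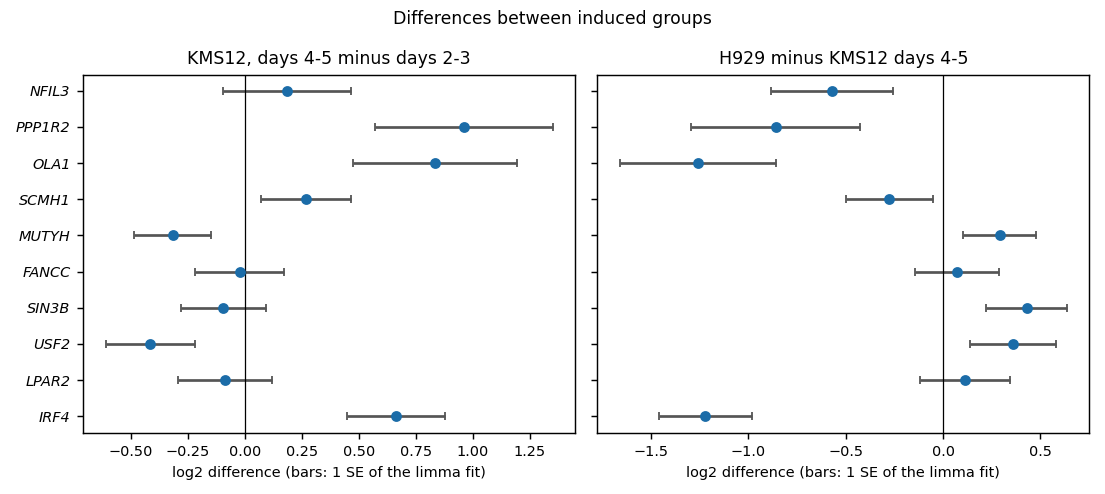
Points are log2 differences (horizontal axis) of the 9 genes and IRF4 (vertical axis) between days 4-5 and days 2-3 of KMS12 (left) and between H929 and KMS12 at days 4-5 (right), with bars of 1 SE from limma. NFIL3, PPP1R2, OLA1, SCMH1 and IRF4 lie right of 0 on the left and left of 0 on the right, and no point passed the adjusted threshold. Both panels use the same KMS12 arrays of days 4-5, with opposite sign, so they are not independent.

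How the genes varied together was described over the 10 induced arrays, which share the control design and the centring and include repeated times of a series. The 3 lowered genes were positively correlated in all 3 pairs, with Pearson r of 0.85 for PPP1R2 and OLA1, 0.71 for NFIL3 and OLA1, and 0.51 for NFIL3 and PPP1R2. The raised genes did not vary as a block, with 9 of 15 pairs above 0, a median of 0.15 and a lowest value of -0.80 for SCMH1 and USF2. With IRF4 over the same arrays, OLA1 had an r of 0.93, NFIL3 0.79 and PPP1R2 0.71. MUTYH gave -0.75, SIN3B -0.50, FANCC -0.48, USF2 -0.36, LPAR2 -0.19 and SCMH1 -0.02. OLA1 thus had the strongest positive and MUTYH the strongest negative correlation with IRF4 of the 9, and SCMH1 the one nearest 0.

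The named genes most like each gene over all 13 arrays, of 1702 compared, were found by Pearson r, a description that the induced against uninduced contrast enters. OLA1 was most like HMGB2, a chromatin protein (0.98), and POLR2B, an RNA polymerase II subunit (0.98). PPP1R2 was closest to SRPK1, a kinase of splicing factors (0.97), and SEPTIN7, a cytoskeletal GTPase (0.96). NFIL3 was closest to FUBP1, a DNA-binding protein (0.95), and PDHB, a pyruvate dehydrogenase subunit (0.95). The highest r of each raised gene was lower than those of the lowered genes. MUTYH was most like STX5, a Golgi syntaxin (0.93), and TCTA (0.85), and SIN3B most like GEM, a small GTPase (0.90), and DMPK, a kinase (0.87). LPAR2 was most like the receptors CHRNA7 (0.89) and ADORA2A (0.89), and USF2 most like XRCC1, a repair scaffold (0.87), and PPP2R5B, a phosphatase 2A subunit (0.85). FANCC was nearest to LY75, an endocytic receptor (0.84), and DMC1, a meiotic recombinase (0.83), and SCMH1 to ZAP70, a T cell kinase (0.83), and NKIRAS2 (0.83).

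Other genes of the pathways around the 9 were taken from 9 lists of 182 genes, of which 63 were measured and 55 tested between induced and uninduced arrays. None passed the adjusted threshold in limma, with 18 under an unadjusted p of 0.05 against 867 of 3722 overall (23.3%), and the lists' median difference was -0.22 against 0.01 over all genes. Higher induced means were found for 23 of the 55, against 1908 of 3713 genes and features with the 9 genes left out. None of the 41 listed genes with 13 values met the rule, which 74 of 2496 genes and features (2.96%) met. Of 6 tested phosphatase 1 genes, 3 had higher induced means, and those with the smallest p were PPP1R12A, a myosin phosphatase subunit (-0.72), PPP1CC, a catalytic subunit (-0.98), and PPP1R18 (0.24). Of 6 tested genes around eIF2, to which OLA1 has been reported to bind, the ones with the smallest p were EIF2S2 (-1.22), EIF5 (-1.16) and EIF2AK2, the double-stranded RNA kinase (0.80). The 2 tested clock genes listed for NFIL3, NR1D1 and BHLHE40, had differences of 0.29 and 0.13.

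Listed partners of the raised genes lay on both sides of 0, as did all genes and features (1908 of 3713 above 0). In base excision repair, 5 of 13 tested genes had higher induced means, and the smallest p values belonged to PCNA, the sliding clamp (-0.86), MBD4, a glycosylase (-0.53), and NUDT1, which clears oxidised guanine nucleotides (0.47). The Fanconi list had 1 of 4 above 0, with USP1, the FANCD2 deubiquitinase (-0.85), BLM, a helicase (-0.24), and ERCC1, a nuclease subunit (0.20). Among SIN3 and deacetylase genes 2 of 7 were above 0, with HDAC2 (-1.06), HDAC1 (-0.33) and MXD3 (0.40). For Polycomb 2 of 4 were above 0, with BMI1 (-0.99), EZH2 (-0.30) and PHC2 (0.17). The E-box factors split 4 of 8, with TCF4 (-1.09), MYC (-0.65) and MAX (0.36), and lysophospholipid signalling had 1 of 5 above 0, with GNAI3 (-0.75), GNAI2 (-0.32) and RHOA (-0.26). None of these named genes passed the adjusted threshold, the lowest limma adjusted p being 0.0899 for EIF2AK2.

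Markers of cell state were also set against the split of arrays, and none of their genes passed the adjusted threshold in limma. Those under an unadjusted limma p of 0.05 were 4 of 9 tested plasma cell, 3 of 4 earlier B cell and 1 of 6 T cell markers. Of the tested myeloid markers 0 of 1 were, and of the erythroid or stromal ones 1 of 3. The share over all genes and features was 867 of 3722 (23.3%). Over 9 measured plasma cell markers of 11, the array medians ran between -0.66 and -0.17 on induced arrays and between -0.02 and 0.15 on uninduced arrays, with PRDM1 and TNFRSF17 lower on every induced array. For 6 of 8 earlier B cell markers they ran between -0.13 and 0.58 on induced arrays and between -0.55 and -0.17 on uninduced arrays, with BCL11A and BCL6 higher on every induced array. For 6 of 8 T cell markers they ran between -0.14 and 0.50 on induced arrays and between -0.26 and -0.01 on uninduced arrays, which overlap, with ZAP70 higher on every induced array. Myeloid (1 of 6 measured) and erythroid or stromal markers (4 of 7) overlapped between the groups. Of markers with 13 values, 2 of 9 plasma cell, 2 of 3 earlier B cell and 1 of 6 T cell ones thus met the rule. Over all genes and features 2.2% met it on the lower and 0.761% on the higher side. A two-colour ratio gives a difference between the 2 cultures and no level, so it does not show whether a cell type is present, and fewer cells of a kind cannot be told apart from less RNA per cell. The part of these differences in the values of the 9 genes was not tested.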

How the data were processed

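Total RNA of both hairpin cultures was prepared with Trizol and reverse transcribed with Cy5 or Cy3, per the labels' protocols. Log ratios of 15246 features on 13 arrays were deposited by the authors and are taken here as log2, their values running between -9.78 and 7.51. Their base, normalization, background correction and spot filtering were not given in the sources used here. Intensities were not used, dyes were never swapped, and a dye effect of a gene cancels only where arrays are subtracted. The number of arrays limits the precision.

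Platform annotation gave 1 symbol for 10169 features, several for 4 and none for 5073. Symbols of 10128 features were found in the RefSeq gene table used for names. Features entered the tests if measured on at least 10 of 13 arrays and at least 2 of 3 in each KMS12 window (6879 features). Arrays were centred on their median over these, and features of a gene were averaged, giving 2833 named genes and 1895 unnamed features. Features with no value on any array numbered 221.

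limma 3.58.1 in R 4.3.3 was fitted to 6 group means, two-sided, with p-values adjusted by Benjamini and Hochberg's method across every gene tested and called at 0.05. In simulated data with independent normal noise, 200 genes were changed by 1 on the log2 scale. Of these 200, 147 were recovered between induced and uninduced, with 10 false calls among the 3722 tested. Between days 4-5 and days 2-3, 69 were recovered with 0 false calls, and between H929 and KMS12 63 with 1. Real arrays share series and a control design, so these counts need not hold for them. Series numbers were taken as pairing uninduced with induced KMS12 arrays, since every same-series correlation of deviations from the group means was over 0.1 (0.13 to 0.23). The main fit of induced against uninduced arrays left this pairing out, and the fit with the series as a block used it. The 9 genes, the lists and the comparisons were chosen with earlier results of these data known. Named were the 9 genes and IRF4, the 2 named genes most like each, 3 genes just outside the rule and, per list, up to 3 genes with the smallest p. Alternatives changed the centring, scaling, feature filter, averaging, limma settings, series block and each array in turn. No protein sequences were used here.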

Additional observations from a re-analysis of the deposited data

How the results depend on the processing

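Of the 9 genes, the rule was met by 3 without centring, 8 with arrays scaled to one spread, 6 with every feature that had at least 2 values in each group of 2 or 3, 5 from features on all 13 arrays only, and 4 with each feature on its own. Genes of any name that met it numbered 121 without centring, 378 with each array set against its own series (an alternative chosen after seeing the data), and 75 to 279 without single arrays. Between induced and uninduced arrays the 5 calls became 263 without centring (12 higher, 251 lower), 26 with arrays scaled to one spread, 3 with features on all 13 arrays only, 12 per feature, 0 with a trended, robust limma fit (871 at an unadjusted p under 0.05), 0 with the culture series as a replicate block (1 on the 3722 genes first tested, and 0 there with the same induced term and no block), and 0 to 285 without single arrays. With that block the induced term came from KMS12 arrays only. Between days 4-5 and days 2-3 the count ranged over 0 to 360 without single arrays. The series block, which here shares only a number since the same-series correlations were 0.36, -0.12 and -0.07, left it at 0, with 1001 at an unadjusted p under 0.05. Between H929 and KMS12 the 2 calls became 0 with scaling, 60 with features on all 13 arrays only, 1 with every feature, 6 per feature, 8 with the trended fit, 0 with only the groups compared, and 0 to 31 without single arrays. With the hairpin series as a replicate block, H929 and SKMM1 counted in series 2046, the count there was 0; the block planned for this comparison, which set these lines apart, could not be fitted. These last blocked fits and the single term were also chosen after seeing the data. Many alternatives, such as a trended fit or leaving out an array of neither group compared, cannot move a difference, and none of the 9 passed in the main fits. For the 9 genes in both comparisons, 344 of 358 alternatives kept direction and side of the threshold, a count that thus overstates stability. Those turned between days 4-5 and days 2-3 were FANCC at 0.023 (no centring), 0.016 (scaled), 0.13 (every feature), and 0.051 and 0.080 without single arrays (range -0.13 to 0.080), NFIL3 at -0.10 (scaled) and -0.060 (without series 1332b day 2, range -0.060 to 0.45), LPAR2 at 0.0033 (scaled) and SIN3B at 0.0063 (features on all 13 arrays). Between H929 and KMS12 they were FANCC at -0.039 (every feature) and, without single arrays, -0.032 and -0.077 (range -0.077 to 0.22), and LPAR2 at -0.060 (range -0.060 to 0.28). PPP1R2 passed at 1.47 without the series 2046 day 2 array. The cause of these changes was not tested. Signal over background was not used here, so it sets no limit per feature.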
